A study of Mus musculus with 8 samples.

Results

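De novo lipogenesis is the making of fatty acids from non-fat carbon, and 10 genes of it were followed here in white fat: the transcription factor genes Mlxipl (ChREBP) and Srebf1 (SREBP1), the enzyme genes Acly, Acaca, Acacb, Fasn, Elovl6, Scd1 and Scd2, and the cofactor gene Thrsp. They were picked by symbol for their known role, and all 10 were found by their Ensembl identifier among the 55487 gene identifiers of the deposited tables. RNA was sequenced from epididymal white adipose tissue (eWAT, the visceral fat pad of the male mouse) of 8 male C57BL/6 mice made obese by high-fat feeding (HFD). All 8 mice carried floxed alleles of Slc16a1 (Slc16a1 flox/flox), the gene of the lactate transporter MCT1. The 4 WT mice, numbered 2, 3, 4 and 5, had no Cre in their labelled genotype, and the 4 AKO mice, numbered 3, 8, 9 and 11, had AP2-Cre as well. AP2-Cre uses the promoter of Fabp4, a fatty acid-binding protein gene of adipocytes that macrophages also express, so Cre need not have been restricted to adipocytes. No group had Cre without the floxed alleles, so the transgene and the deletion cannot be told apart, and the ages are not given in the labels.

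Cytosolic citrate is split by ATP-citrate lyase into acetyl-CoA, acetyl-CoA carboxylase turns this into malonyl-CoA, and fatty acid synthase joins the units into palmitate, which is then elongated and desaturated. SREBP1 is released from a membrane-bound precursor and is driven by insulin, while ChREBP responds to glucose metabolites, and both are known to act on the promoters of several of these enzyme genes. In adipose tissue ChREBP also has a short isoform made from a separate promoter, and high-fat feeding is known to lower lipogenesis in white fat.

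The promoter sequences of both factors and of 4 of the genes that later comparisons turn on are given here, as the 250 bases before the annotated start in RefSeq on GRCm38.p6, 5′ to 3′ on the gene's own strand, with capitals marking the motifs searched. These were CACGTG (the E-box core), TCACNCCAC (a sterol regulatory element core), ATTGG (the inverted CCAAT box, CCAAT on the other strand) and TATAAA, each sought on both strands. Mlxipl has a pair of annotated starts, with windows chr5:135089640-135089889 and chr5:135106641-135106890 on the plus strand. Windows of a gene are numbered from upstream to downstream, and which Mlxipl window belongs to the short isoform was not assigned. The Fasn window is chr11:120824548-120824797, that of Acly chr11:100528001-100528250 and that of Thrsp chr7:97417551-97417800, all on the minus strand. Srebf1 has 3 annotated starts, with windows chr11:60222582-60222831, chr11:60220628-60220877 and chr11:60210472-60210721 on the minus strand, and the Acaca window is chr11:84195188-84195437 on the plus strand.
Mlxipl promoter 1: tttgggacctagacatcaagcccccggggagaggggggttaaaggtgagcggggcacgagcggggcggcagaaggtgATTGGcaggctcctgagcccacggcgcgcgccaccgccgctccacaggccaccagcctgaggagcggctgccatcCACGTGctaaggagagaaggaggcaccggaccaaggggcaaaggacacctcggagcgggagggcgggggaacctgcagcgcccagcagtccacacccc
Mlxipl promoter 2: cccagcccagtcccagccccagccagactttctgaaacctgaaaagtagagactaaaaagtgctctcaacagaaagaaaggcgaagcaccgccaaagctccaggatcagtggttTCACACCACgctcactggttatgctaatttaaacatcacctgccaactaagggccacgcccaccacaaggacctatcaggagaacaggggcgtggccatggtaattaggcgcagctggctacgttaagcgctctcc
Srebf1 promoter 1: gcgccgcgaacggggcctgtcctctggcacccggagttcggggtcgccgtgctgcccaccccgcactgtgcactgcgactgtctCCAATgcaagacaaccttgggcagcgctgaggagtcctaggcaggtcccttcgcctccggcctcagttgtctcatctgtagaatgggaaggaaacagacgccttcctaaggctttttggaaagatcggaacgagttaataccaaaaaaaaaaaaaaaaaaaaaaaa
Srebf1 promoter 2: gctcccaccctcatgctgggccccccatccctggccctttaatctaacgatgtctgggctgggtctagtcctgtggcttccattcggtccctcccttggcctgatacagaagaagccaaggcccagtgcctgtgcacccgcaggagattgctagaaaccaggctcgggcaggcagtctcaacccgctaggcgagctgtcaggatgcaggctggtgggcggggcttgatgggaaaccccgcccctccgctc
Srebf1 promoter 3: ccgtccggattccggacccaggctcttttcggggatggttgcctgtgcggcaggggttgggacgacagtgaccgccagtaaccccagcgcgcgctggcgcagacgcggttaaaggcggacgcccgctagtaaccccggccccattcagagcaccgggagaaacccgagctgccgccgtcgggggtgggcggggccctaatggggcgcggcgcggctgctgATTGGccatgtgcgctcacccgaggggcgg
Acaca: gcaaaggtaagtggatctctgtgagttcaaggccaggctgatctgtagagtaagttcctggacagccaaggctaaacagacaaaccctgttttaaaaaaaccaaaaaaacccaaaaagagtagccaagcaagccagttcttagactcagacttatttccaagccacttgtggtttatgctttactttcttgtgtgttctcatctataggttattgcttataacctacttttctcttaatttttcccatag
Acly: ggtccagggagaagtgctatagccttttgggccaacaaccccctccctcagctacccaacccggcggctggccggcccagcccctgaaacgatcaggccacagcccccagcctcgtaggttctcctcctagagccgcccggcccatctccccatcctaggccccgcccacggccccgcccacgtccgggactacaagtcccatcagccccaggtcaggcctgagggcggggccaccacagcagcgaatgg
Fasn: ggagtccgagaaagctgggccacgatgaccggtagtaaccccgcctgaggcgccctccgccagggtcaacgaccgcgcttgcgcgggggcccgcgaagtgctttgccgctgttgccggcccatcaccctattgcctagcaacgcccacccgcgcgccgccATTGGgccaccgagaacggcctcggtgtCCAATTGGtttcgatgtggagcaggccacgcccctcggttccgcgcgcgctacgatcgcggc
Thrsp: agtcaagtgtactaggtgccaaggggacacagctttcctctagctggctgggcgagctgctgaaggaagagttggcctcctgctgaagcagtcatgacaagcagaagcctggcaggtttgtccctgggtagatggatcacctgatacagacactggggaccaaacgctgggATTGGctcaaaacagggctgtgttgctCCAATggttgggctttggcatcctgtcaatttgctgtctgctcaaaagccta

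The first Mlxipl window held CACGTG, at −98 to −93 counted from the start, and an ATTGG. The downstream Mlxipl window held no CACGTG but TCACACCAC, at −136 to −128. Among 32817 promoter windows of the same length, 6.02% held CACGTG and 1.05% TCACNCCAC. The Fasn window held 3 matches to the CCAAT box in either orientation, of which 2 overlap in the letters CCAATTGG, and the Thrsp window held 2, against 33.8% of all windows with at least 1. The Acly and Acaca windows held none of the 4 motifs. This holds for these windows alone, and whether the annotated starts are those used in this fat was not tested. In all, 8 of the 10 genes were matched to 11 windows, and Scd1 and Scd2 were not. None of the 3 Srebf1 windows held CACGTG or TCACNCCAC, and TATAAA, found in 12.4% of all windows, was found among the 11 in Acacb alone. These are matches of letters, not measured binding.

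Levels are in TPM, a transcript abundance that is scaled for transcript length and library and keeps no record of read depth. The 10 genes spanned a wide range (mean of 8 mice): Scd1 stood at 6320 TPM, above Fasn at 511, Thrsp at 429, Scd2 at 166, Acly at 124, Srebf1 at 92.5, Acaca at 38.6, Mlxipl at 22.4, Acacb at 16.6 and Elovl6 at 6.62. Scd1 lay above Fasn, Srebf1 above Acaca and Acacb above Elovl6 in all 8 mice with no overlap of their ranges. Neighbours were less clearly ordered elsewhere: Fasn exceeded Thrsp in 5 of 8 mice, and Scd2 exceeded Acly, like Mlxipl over Acacb, in 6. The 10 genes together took 0.424% to 1.42% of a library, and Scd1 made up 72.6% to 86.4% of that.

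**Figure D1:**
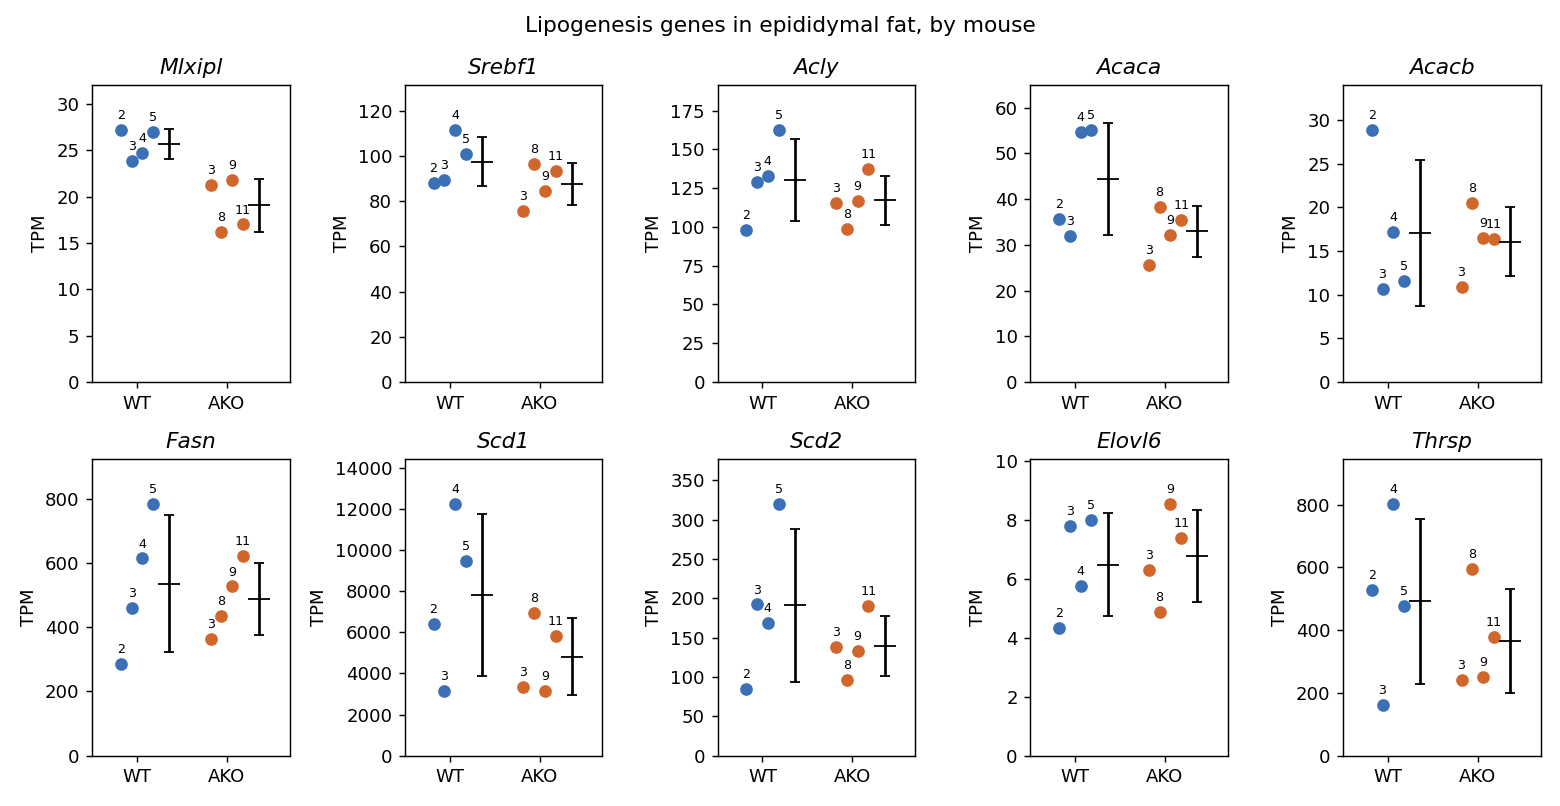
TPM of the 10 genes in each of the 8 mice, WT in blue and AKO in orange. Scd1, near 6320 TPM, stands above all others in every mouse, and Mlxipl is the gene whose 4 AKO values all lie below the 4 WT values.

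No gene of the 10 passed the genome-wide test between AKO and WT. In limma on log2(TPM + 1) over 14172 genes, 4 genes in all passed a false discovery rate (FDR) of 0.05, which is 0.0282% of those tested (0.0212% higher and 0.00706% lower in AKO), and none was a member. Of the 10, Mlxipl alone had an unadjusted limma p below 0.05, against 4.75% of all genes (2.17% lower and 2.58% higher in AKO). That count was 0 with the highest transcript row of each gene in place of the sum, 2 with sample quality weights, and 4 without WT mouse 3. The count over all genes moved as well. It was 673 of 14172 in the main run, 659 of 13569 with the highest row, 1364 of 14172 with the weights and 1938 of 14172 without WT mouse 3. Of the 10 log2 differences 9 were negative, with a median of −0.23, where 46.2% of all genes tested had a negative difference and the median was 0.02. The members were not independent of each other, as the correlations further on show, and the count of signs was not tested.

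Mlxipl encodes ChREBP, which binds DNA with its partner Mlx. Mlxipl read 27.2, 23.9, 24.7 and 27.0 TPM in WT mice 2, 3, 4 and 5, and 21.2, 16.2, 21.8 and 17 TPM in AKO mice 3, 8, 9 and 11. Every AKO mouse lay below every WT mouse, with AKO mice 8 and 11 lowest. Such a gap between groups, with AKO below, was found in 1.33% of the genes tested, and with AKO above in 1.11%. The means were 25.7 ± 1.665 TPM in WT and 19.05 ± 2.85 in AKO (SD, n = 4 each), so that AKO stood at 74.2% of WT. The log2 difference was −0.42 (SE 0.11, 95% interval −0.675 to −0.167, not adjusted for the number of genes), with a limma p of 0.00479 and an FDR of 0.831 over all genes. An exact permutation test of this gene gave p = 0.0286 (two-sided), the smallest that 4 against 4 mice allow. Any gene with groups fully apart gets this value, so it restates the gap and adds nothing to it. The same exact permutation test of the other members gave p from 0.229 (Acaca) to 0.971 (Acacb), and these values were not adjusted for the number of members. Mlxipl was thus lower in these 4 AKO mice but not beyond what the test over all genes can call, and leaving out 1 mouse at a time moved the log2 difference only between −0.485 and −0.351. In bulk tissue, fewer cells of a type and less RNA per cell cannot be told apart.

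Srebf1 encodes SREBP1, the main sterol regulatory element-binding protein of fatty acid synthesis. Srebf1 read 88.1, 89.4, 111 and 101 TPM in WT mice 2 to 5, and 75.8, 96.6, 84.5 and 93.2 TPM in AKO mice 3, 8, 9 and 11. The groups overlapped, with WT mouse 4 highest and AKO mouse 3 lowest. The means were 97.4 ± 10.9 and 87.5 ± 9.33 TPM (SD, n = 4), and the log2 difference of −0.15 (95% interval −0.396 to 0.092) had a limma FDR of 0.831. Srebf1 varied least of the 10 genes, with a ratio of 1.47 between the highest and lowest mouse.

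Acly encodes ATP-citrate lyase, the source of cytosolic acetyl-CoA. Its levels were 97.8, 129, 133 and 162 TPM in WT and 115, 98.95, 117 and 138 TPM in AKO, in the same order of mice. The ranges overlapped, WT mice 2 and 5 being the lowest and the highest of the 8. The log2 difference was −0.14 (95% interval −0.501 to 0.220, limma FDR 0.880).

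Acaca and Acacb encode the acetyl-CoA carboxylases ACC1, the cytosolic form of fatty acid synthesis, and ACC2, the mitochondrial-surface form whose malonyl-CoA restrains fatty acid oxidation. Acaca read 35.7, 31.95, 54.7 and 55.1 TPM in WT and 25.6, 38.4, 32.2 and 35.5 TPM in AKO. WT mice 4 and 5 stood above the other 6, and the groups overlapped through WT mice 2 and 3. The log2 difference of −0.39 (95% interval −0.859 to 0.074) had a limma p of 0.0887 and an FDR of 0.831. Of the bases of its longest annotated transcript, 63.1% lie in 50-base stretches that occur also in the pseudogene Gm5182. Reads may have been split between them, and the Acaca level is uncertain. Acacb read 28.8, 10.7, 17.2 and 11.5 TPM in WT and 10.9, 20.5, 16.5 and 16.3 TPM in AKO. WT mouse 2 was highest, and the AKO mice lay inside the WT range, at a log2 difference of −0.01 (95% interval −0.705 to 0.690, limma FDR 0.998). The ratio of Acaca to Acacb ran from 1.24 in WT mouse 2 to 4.78 in WT mouse 5 and from 1.87 to 2.35 in AKO, with no difference past the exact permutation test (log2 difference −0.39, p = 0.429, 0.643 after adjustment over 3 ratios). This value rested on single mice: it was −0.75 without WT mouse 2 (exact permutation p = 0.0286, adjusted 0.0857) and −0.13 without WT mouse 5. The unadjusted p without WT mouse 2 is the smallest that this split of mice allows. It restates that the remaining WT ratios all lay above the AKO ratios.

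Fasn encodes fatty acid synthase, the enzyme that assembles palmitate. It read 284, 459, 614 and 783 TPM in WT and 363, 434, 526.5 and 622 TPM in AKO. The AKO mice lay inside the WT range, which ran from WT mouse 2 to WT mouse 5. The log2 difference was −0.07, with a 95% interval from −0.764 to 0.622 and a limma FDR of 0.967, so that a fold change of the size seen for Mlxipl is inside the interval.

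Elovl6, the elongase that takes palmitate to stearate, was the lowest of the 10 genes. Its levels were 4.34, 7.80, 5.76 and 7.99 TPM in WT and 6.29, 4.88, 8.53 and 7.37 TPM in AKO. AKO mouse 9 was highest and WT mouse 2 lowest, and Elovl6 was the 1 member with a positive log2 difference, 0.06 (95% interval −0.409 to 0.539, limma FDR 0.953).

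Scd1 and Scd2 encode stearoyl-CoA desaturases, which put the first double bond into saturated fatty acids. Scd1 read 6423, 3137, 12242 and 9486 TPM in WT and 3336, 6958, 3154 and 5816 TPM in AKO. WT mouse 3 and AKO mice 3 and 9 formed the low end and WT mice 4 and 5 the high end, so the genotypes overlapped. The log2 difference was −0.61, with a wide 95% interval of −1.621 to 0.392 (limma FDR 0.831). It was −0.34 without WT mouse 4 and −0.997 without WT mouse 3, and −0.09 with the adipocyte marker score, described further on, as a covariate. Scd2 ordered the mice otherwise, with 84.9, 192, 169 and 320.0 TPM in WT and 139, 96.55, 133 and 190.3 TPM in AKO. WT mouse 2, above WT mouse 3 for Scd1, was the lowest of all for Scd2 (log2 difference −0.34, 95% interval −1.192 to 0.503, limma FDR 0.874). Without WT mouse 5 the Scd2 difference was −0.049 and without WT mouse 2 it was −0.683. The ratio of Scd1 to Scd2 accordingly ran from 16.3 in WT mouse 3 to 75.7 in WT mouse 2. In AKO it was 24.1, 72.1, 23.8 and 30.6, AKO mouse 8 standing apart, and the genotypes did not differ by the exact permutation test (log2 difference −0.27, p = 0.743). About 9.06% of the bases of the longest Scd1 transcript and 9.57% of those of Scd2 lie in 50-base stretches shared with other genes. These genes include each other, Scd3 and Scd4.

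Thrsp encodes Spot 14, a small protein of lipogenic tissues that responds to thyroid hormone and carbohydrate. It read 527, 161, 802 and 478 TPM in WT and 240.2, 595, 250.4 and 378 TPM in AKO, a range of 4.99 times and the widest of the 10. The low mice, WT mouse 3 and AKO mice 3 and 9, were those that were low for Scd1. The log2 difference was −0.32 (95% interval −1.430 to 0.799, limma FDR 0.909), and it was −0.01 without WT mouse 4 and −0.781 without WT mouse 3.

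**Figure D2:**
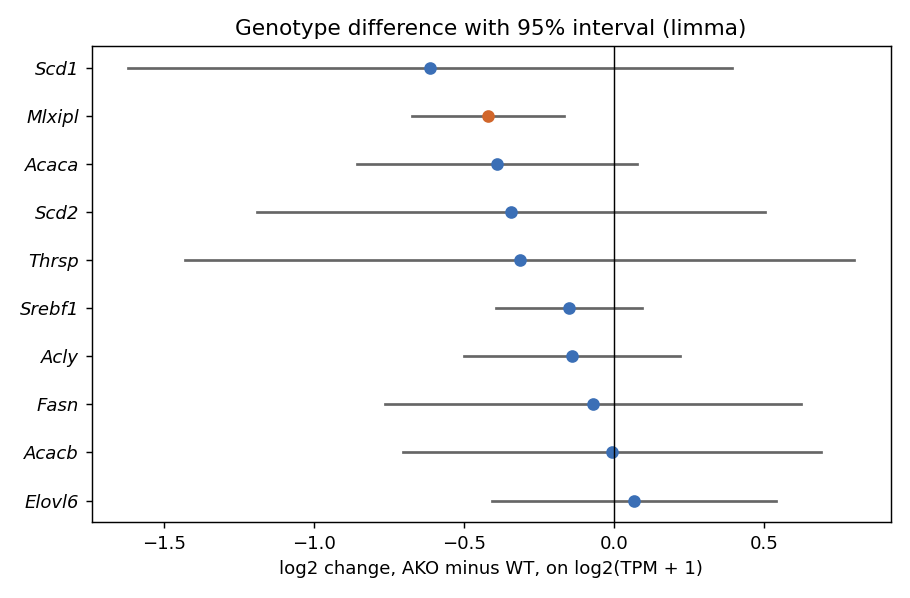
Log2 difference in log2(TPM + 1), AKO minus WT, of each of the 10 genes with its 95% interval from limma, unadjusted. Mlxipl, in orange, is at −0.42 and is the gene whose interval leaves out 0 and the intervals of Scd1, from −1.621 to 0.392, and Thrsp, from −1.430 to 0.799, are the widest.

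Across the 8 mice, Srebf1 went with Acaca and Scd1, and the summed level of Mlxipl with none of the enzymes. The family was 17 relations: each of the 8 enzyme and cofactor genes with each regulator, and the regulators with each other, on log2(TPM + 1). Each mouse is 1 library and all genes of a library share its scaling. Srebf1 and Acaca had Pearson's r = 0.931 (exact permutation p = 0.000546, 0.00928 after Benjamini-Hochberg adjustment) and Spearman's rho = 0.857 (exact permutation p = 0.0107, adjusted 0.182). Srebf1 and Scd1 had r = 0.869 (exact permutation p = 0.00402, adjusted 0.0342) and rho = 0.786 (exact permutation p = 0.0279, adjusted 0.237). Both relations passed by Pearson's r and neither by rank. Without WT mouse 4 and AKO mouse 3, the mice farthest from the median of Srebf1, r was 0.847 for Acaca and 0.818 for Scd1. With each genotype's mean taken out first, r was 0.91 for Acaca (exact permutation p = 0.0104) and 0.835 for Scd1 (exact permutation p = 0.0243), and neither then passed the adjustment over 17. Of the 2 calls none was left when WT mouse 4, AKO mouse 3 or AKO mouse 8 was dropped, and 1 when WT mouse 5, AKO mouse 9 or AKO mouse 11 was, while r stayed at 0.897 or more for Acaca and 0.785 or more for Scd1. Thrsp with Srebf1 had r = 0.727 (exact permutation p = 0.0401, adjusted 0.227) and Fasn r = 0.608 (exact permutation p = 0.106, adjusted 0.451). Acly, Scd2, Acacb and Elovl6 gave r of 0.404, 0.341, 0.187 and −0.106 with Srebf1.

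With Mlxipl, r was 0.337 for Acaca, 0.264 for Acly, 0.255 for Scd2, 0.183 for Scd1, 0.036 for Elovl6, 0.026 for Thrsp, −0.028 for Fasn and −0.069 for Acacb. All had an adjusted exact permutation p of 0.949, as did Mlxipl with Srebf1 at r = 0.118. These values depended on which mice were kept: without AKO mice 8 and 11, which had the lowest Mlxipl, r was 0.714 for Scd1, 0.688 for Acaca and 0.616 for Thrsp over the 6 mice left. With genotype means removed, Scd1 and Acaca were instead at −0.372 and −0.298. With 8 mice a moderate relation with Mlxipl was not detectable. When each gene was represented by its highest transcript row in place of the sum, 3 relations with Mlxipl passed the adjusted exact permutation test: with Srebf1 (r = 0.891), Scd1 (r = 0.864) and Thrsp (r = 0.844).

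**Figure D3:**
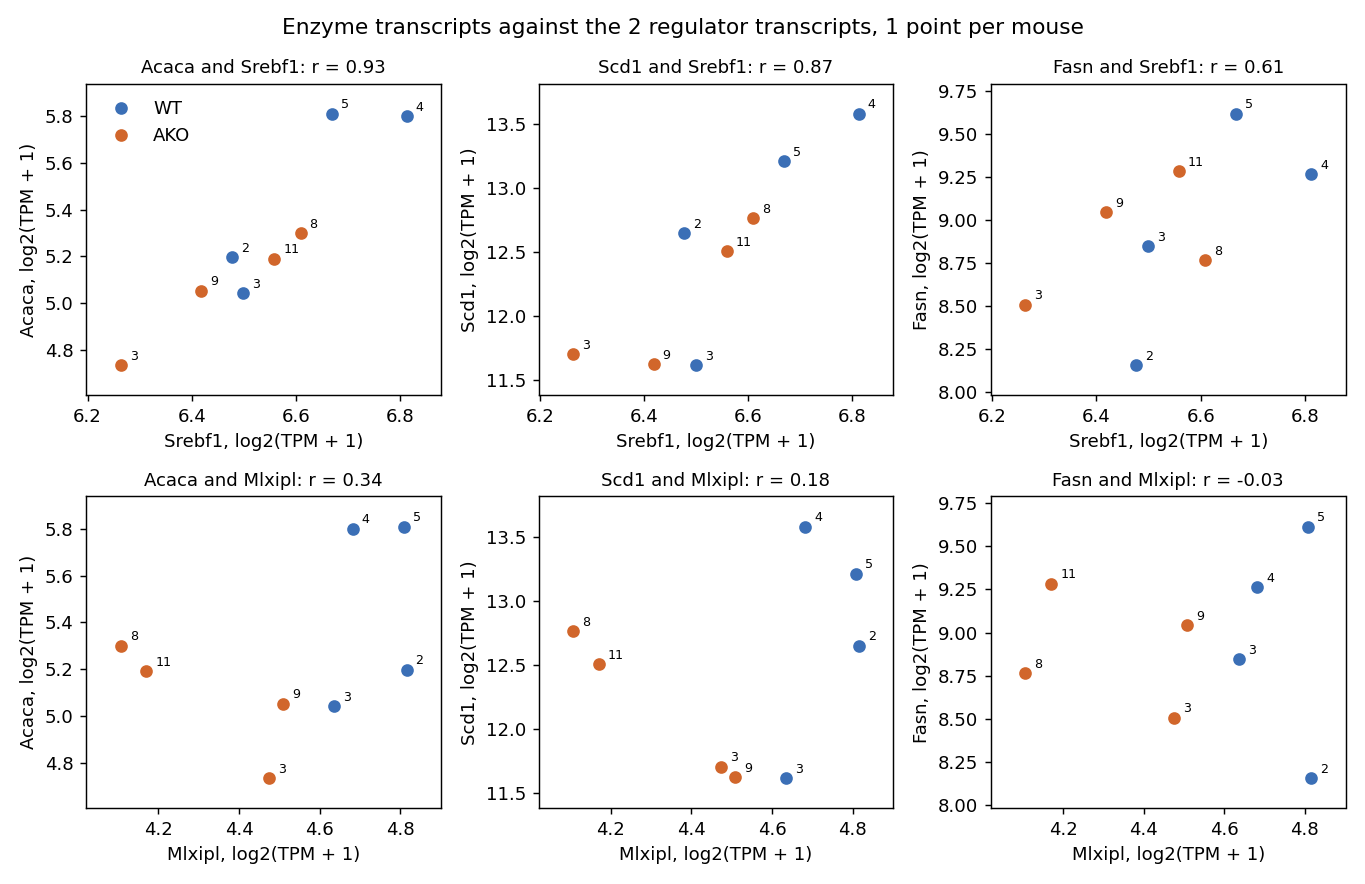
Each dot is a mouse, WT blue and AKO orange, with log2(TPM + 1) of Srebf1 or Mlxipl on the x axis and of an enzyme gene on the y axis. Acaca and Scd1 are higher where Srebf1 is higher (r of 0.931 and 0.869) across the 8 mice, and r with Mlxipl is 0.337 and 0.183.

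By Pearson's r, Srebf1, Acaca and Scd1 also went with marker scores of cell types. They went up with that of adipocytes and down with those of lipid-associated macrophages and of fibroblasts and progenitors. With the general macrophage score only Scd1 among them passed. An adipocyte score, the mean log2(TPM + 1) of 15 marker genes such as Adipoq and Plin1, ran from 9.90 to 10.81 in WT and from 9.92 to 10.44 in AKO. Not every marker followed the score. Lep, also in the list, was 2134 TPM in WT mouse 4, which had the highest score, and 2973 TPM in WT mouse 3, which had the lowest. Scores of macrophages, lipid-associated macrophages, fibroblasts and progenitors, and endothelial cells were made likewise, which gave 50 relations with the 10 genes, chosen after the values were seen. By rank, 1 of them passed the adjusted exact permutation test, Scd1 with the adipocyte score (rho = 0.976, exact permutation p = 0.000397, adjusted 0.0198; r = 0.981, exact permutation p = 0.000124, adjusted 0.0062). By Pearson's r alone, the adipocyte score also went with Thrsp (r = 0.95, adjusted exact permutation p = 0.0141; rho = 0.881, adjusted 0.0724), Acaca (r = 0.822, adjusted 0.046; rho = 0.881, adjusted 0.0724) and Srebf1 (r = 0.813, adjusted 0.046; rho = 0.714, adjusted 0.169). Fasn, Acly, Mlxipl and Scd2 were at 0.293, 0.165, 0.133 and 0.07, none past the test. Without WT mouse 3 and AKO mouse 9, r with the adipocyte score was 0.967 for Scd1, 0.934 for Thrsp, 0.891 for Acaca and 0.944 for Srebf1.

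The macrophage score ran the other way, with r = −0.913 for Scd1 (adjusted exact permutation p = 0.0253, by rank 0.153) and −0.838 for Thrsp (adjusted 0.046, by rank 0.169). Srebf1 at −0.818 (adjusted exact permutation p = 0.0543, by rank 0.253) and Acaca at −0.774 (adjusted 0.0683, by rank 0.274) did not pass. The lipid-associated macrophage score, which shares Lpl and Cd36 with the adipocyte list, gave −0.912 for Scd1, −0.835 for Acaca, −0.819 for Srebf1 and −0.805 for Thrsp. The fibroblast and progenitor score gave −0.86 for Scd1, −0.813 for Srebf1 and −0.803 for Acaca, each with an adjusted exact permutation p of 0.046 and not past it by rank. Without WT mouse 4 and AKO mouse 3 these 3 values were −0.744, −0.42 and −0.51. The endothelial score went with Thrsp (r = 0.913, adjusted exact permutation p = 0.0253; by rank 0.0724) and Acacb (r = 0.806, adjusted 0.046; by rank 0.128). The scores move together across the mice, and their separate parts in the levels of the 10 genes were not tested. With the adipocyte score regressed out of both genes, r of Srebf1 was 0.793 with Acaca, 0.631 with Scd1 and −0.254 with Thrsp, and none passed the adjustment.

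No marker of these or the other cell types listed passed the test between genotypes. Of all genes tested, 4.75% had an unadjusted limma p below 0.05. Of the 15 adipocyte markers 13 had a negative log2 difference (median −0.17, 1 with an unadjusted limma p below 0.05), and their summed level was 37030 to 54470 TPM in WT and 38410 to 51290 in AKO. Of the 10 macrophage markers 9 were positive (median 0.41, 0 with an unadjusted limma p below 0.05), with sums of 2296 to 5336 TPM in WT and 3678 to 6457 in AKO. Of 10 lipid-associated macrophage markers 9 were positive (median 1.07, 3 with an unadjusted limma p below 0.05), with sums of 8444 to 13430 and 10950 to 15310 TPM. Lpl and Cd36, which are also in the adipocyte list, made up most of this sum in every mouse. They read 4399 and 3145 TPM of 8444 in WT mouse 4, and 4217 and 3613 TPM of 15310 in AKO mouse 9. All 7 fibroblast and progenitor markers were positive (median 0.33, 1 with an unadjusted limma p below 0.05), with sums of 1358 to 2458 and 1738 to 2573 TPM, and all 3 red blood cell markers were negative (median −0.48, 0 with an unadjusted limma p below 0.05), with sums of 1520 to 5870 and 1275 to 4380 TPM. The part of cell makeup in the lower Mlxipl was not tested beyond a fit with the adipocyte score as a covariate, in which the Mlxipl log2 difference was −0.466, against −0.42 without it, with an FDR of 0.765 in limma. Markers of liver, a tissue where most of these genes are also known to be expressed, summed to 1.92 to 3.75 TPM, with Fgb at 0. Of 5 epididymal epithelium markers Lcn8, Lcn9 and Defb12 were at 0 in all 8 mice, and the 5 summed to 4.22 TPM in WT mouse 3 and 7.57 TPM in WT mouse 4, against 0 to 0.51 TPM in the other 6.

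Among the enzyme genes themselves, Acly went with Scd2 and with Fasn, and Scd1 with Thrsp and with Acaca. In 28 pairs, examined after the values were seen, 19 had a positive r and 4 passed the adjusted exact permutation test by Pearson's r, and the same number by rank. Acly went with Scd2 at r = 0.986 (exact permutation p = 0.000298, adjusted 0.00833; rho = 0.905, adjusted 0.0319). Acly went with Fasn at r = 0.869 (exact permutation p = 0.00568, adjusted 0.0398; rho = 0.952, adjusted 0.0319). Scd1 went with Thrsp at r = 0.927 (exact permutation p = 0.00166, adjusted 0.0155) and with Acaca at r = 0.906 (exact permutation p = 0.00136, adjusted 0.0155), both with rho = 0.905. Acly, Fasn and Scd2 were all lowest in WT mouse 2 and highest in WT mouse 5, while Scd1 and Thrsp were highest in WT mouse 4 and Acaca in WT mice 4 and 5. Without WT mice 2 and 5, r was 0.966 for Acly with Scd2 and 0.655 for Acly with Fasn. Without the mice farthest from the median, r was 0.891 for Scd1 with Thrsp (WT mice 3 and 4 out) and 0.774 for Acaca with Scd1 (WT mice 4 and 5 out). Of the pairs that would close these into groups, Fasn with Scd2 (r = 0.836, adjusted exact permutation p = 0.0582) and Acaca with Thrsp (r = 0.74, adjusted 0.127) did not pass. Elovl6 was at 0.743 with Scd2 and 0.719 with Acly, and Acaca at 0.65 with Fasn, none past the test. Between the isozymes r was low, 0.193 for Scd1 with Scd2 and 0.124 for Acaca with Acacb. With the adipocyte score regressed out, Acly with Scd2 stood at 0.99 and Acaca with Scd1 at 0.893, whereas Scd1 with Thrsp stood at −0.075.

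**Figure D4:**
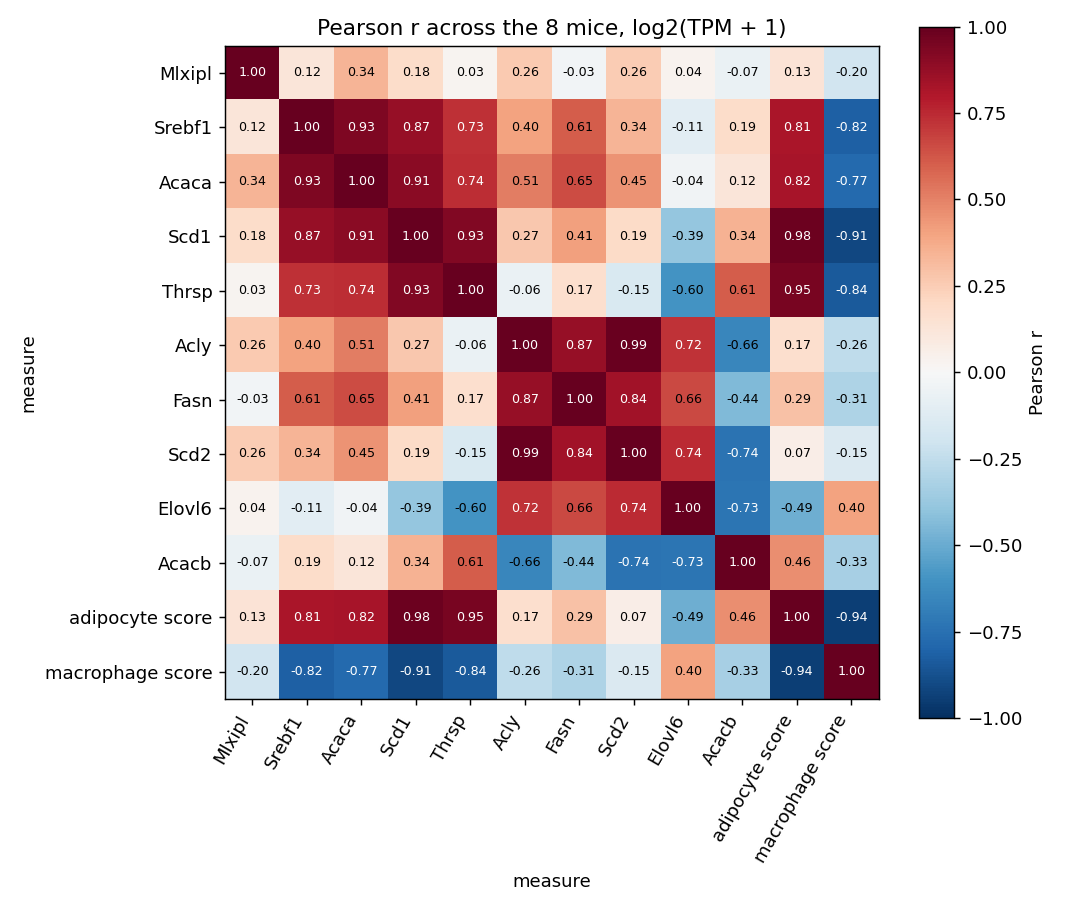
Pearson's r of log2(TPM + 1) across the 8 mice for every pair of the 10 genes, and of these with the adipocyte and macrophage scores. Between genes the highest values are Acly with Scd2 (0.986), Srebf1 with Acaca (0.931) and Scd1 with Thrsp (0.927). Those of Mlxipl with the other genes run from −0.069 to 0.337. Scd1 with the adipocyte score is at 0.981.

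The deposited rows are transcripts without a transcript name, so rows are numbered here in file order within a gene. Mlxipl had 12 rows, of which 5 passed the filter, and no row held more than 23.3% of the gene. None of the rows of the 10 genes passed an FDR of 0.05 in limma over 33323 rows, of which 0.021% passed. The rows tested were 5 for Mlxipl, 6 for Srebf1, 4 each for Acly and Acaca, and 5 each for Acacb and Fasn. For Scd2 they were 3, for Scd1 and Thrsp 2 each, and for Elovl6 1. Of all these rows 3, in Mlxipl, Srebf1 and Thrsp, had an unadjusted limma p below 0.05, against 5.56% of all rows. The Srebf1 and Thrsp rows among them held 2.07% and 0.90% of their genes. Of the tested rows of the 10 genes, row 8 of Mlxipl and row 4 of Srebf1 had every AKO mouse below every WT mouse, as did 1.45% of all rows tested. Mlxipl row 8 read 6.21, 5.79, 4.71 and 5.18 TPM in WT and 3.84, 3.43, 4.24 and 1.89 TPM in AKO (log2 difference −0.60, limma FDR 0.838). An Acaca row too low to be tested, row 10, was also separate, by 0.43 TPM in the lowest WT against 0.42 TPM in the highest AKO mouse. The largest Mlxipl row, row 1, read 6.41, 3.68, 7.44 and 6.45 TPM in WT and 3.13, 5.06, 4.84 and 4.69 TPM in AKO, with the groups overlapping through WT mouse 3. Which Mlxipl row carries the short ChREBP isoform cannot be read from the file. Srebf1 had 13 rows, and row 13 held 68.8% of it, at 64.4, 54.2, 75.6 and 73.1 TPM in WT and 49.1, 70.03, 57.2 and 65.7 TPM in AKO. A small Srebf1 row, row 4 with 2.07% of the gene, was listed at 3.48, 5.17, 1.81 and 3.08 TPM in WT and at 0, 0, 0 and 1.78 TPM in AKO (limma FDR 0.682). A value of 0 there can be a failed estimate. Each of Scd1 and Thrsp rested almost wholly on 1 row, with 99.9% and 99.1% of the gene.

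Taken row by row, the regulators related to the enzymes unevenly. In 88 relations of regulator rows with enzyme genes, examined after the values were seen, Srebf1 row 13 passed the adjusted exact permutation test with Scd1 (r = 0.938) and Acaca (r = 0.916), both at 0.0458, and by rank none passed. Mlxipl row 1 had r = 0.869 with Acaca and 0.864 with Scd1, both with an adjusted exact permutation p of 0.115, and 0.844 with Thrsp at 0.133. The r of Mlxipl row 1 with the adipocyte score was 0.851, and that of Srebf1 row 13 was 0.908. Mlxipl row 8 had r = 0.028 with Scd1 and −0.037 with the adipocyte score. The sum over rows used for Mlxipl thus joins rows that ordered the mice differently.

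**Figure D5:**
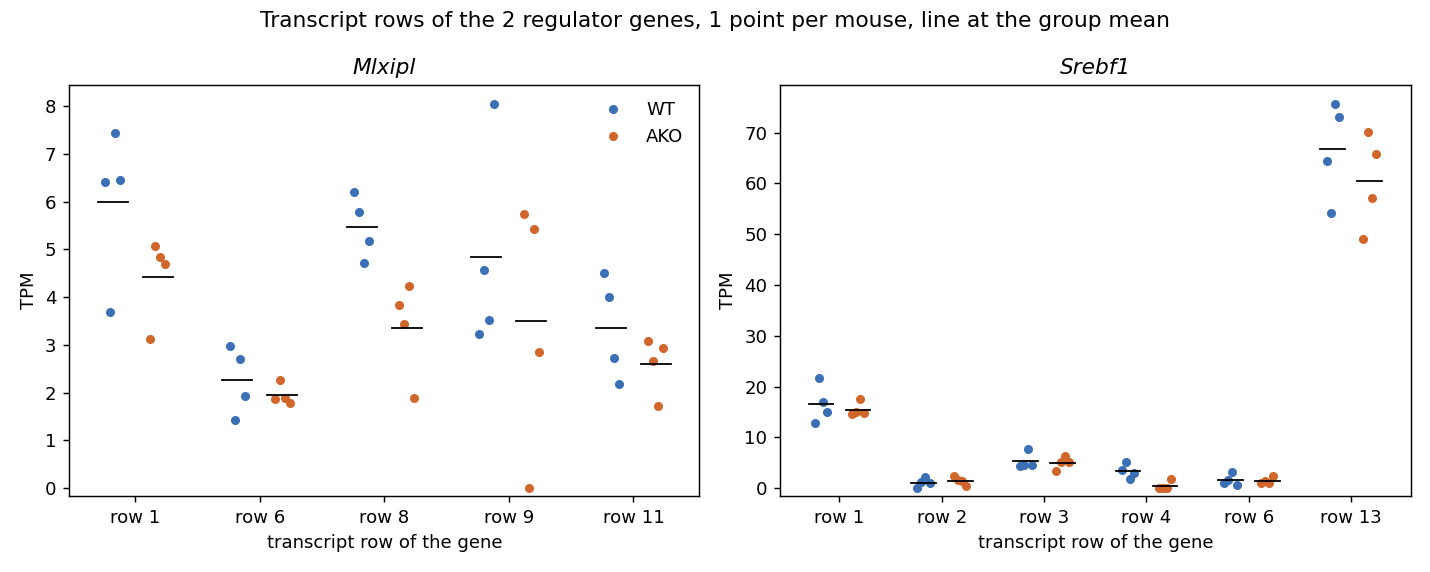
TPM of the tested rows of Mlxipl and Srebf1 in each mouse, WT blue and AKO orange, with rows numbered in file order. Mlxipl is spread over rows of like size, of which row 8 has all AKO mice below all WT mice, while row 13 holds 68.8% of Srebf1.

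Other genes of the pathway, 60 tested in 6 lists, gave no call in limma, where 0.0282% of all genes were called. Of these 60, 2 genes (3.33%), Hacd1 and Fads2, had an unadjusted p below 0.05, against 4.75% of all genes. The lists share a few genes, and of each up to 4 with the smallest p are named. Among 16 partners and controllers of both factors, 8 log2 differences were negative and 8 positive (median 0.01). These were led by Nfya, a subunit of the CCAAT-binding NF-Y, at 23.7 ± 7.10 TPM in WT and 32.4 ± 7.38 in AKO (SD, n = 4). Rxra, the partner of the liver X receptors, stood at 59.2 ± 8.01 and 54.4 ± 3.64 TPM. Mbtps2, the site-2 protease that releases SREBP, stood at 11.3 ± 1.71 and 12.8 ± 2.65 TPM, and Mlx, the partner of ChREBP, at 24.5 ± 3.13 and 22.7 ± 2.93 TPM.

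For acetyl-CoA, citrate and NADPH supply, 8 of 12 differences were negative and 4 positive (median −0.07). The mitochondrial acetyl-CoA synthetase gene Acss1 had means of 10.2 ± 2.10 and 12 ± 2.07 TPM in WT and AKO mice, and Pgd, an NADPH-forming enzyme of the pentose phosphate pathway, had 385.6 ± 55.4 and 348.5 ± 32.0. Citrate synthase (Cs) stood at 196.1 ± 21.5 and 181.4 ± 16.5 TPM, and the citrate carrier Slc25a1 at 285.6 ± 51.5 and 333.2 ± 83.0. In each of these 4 the genotypes differed by less than the sum of their SDs.

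Of 14 other elongation and desaturation genes 9 passed the filter, 6 negative and 3 positive (median −0.09). Hacd1, a dehydratase of the elongation cycle, was 41.1 ± 1.87 TPM in WT and 34.1 ± 3.46 in AKO. Fads2, the delta-6 desaturase of polyunsaturated fatty acids, was 9.14 ± 1.03 and 7.56 ± 0.226 TPM. Both had every AKO mouse below every WT mouse, as did 1.33% of all genes tested. Each had an FDR of 0.831 in limma, and neither passed. Of the 60 related genes tested, these and Prkag1 were the ones so separated. Elovl5 was 58.1 ± 4.76 and 52.2 ± 3.21 TPM, and Hacd3 20.2 ± 1.55 and 21.5 ± 1.65 TPM.

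Of 10 genes that control acetyl-CoA carboxylase, 7 were negative and 3 positive (median −0.08). Prkag1, a subunit of the AMP-activated kinase that inhibits the carboxylases, had means of 55.6 ± 2.10 and 51.9 ± 1.525 TPM in WT and AKO mice. Its AKO values all lay below its WT values, as in 1.33% of all genes tested, with a limma FDR of 0.831. The catalytic subunit Prkaa2 was 2.05 ± 0.291 and 1.655 ± 0.0819. Trib3, a pseudokinase, and Cop1, the ubiquitin ligase with which it acts on the carboxylase, were 7.165 ± 1.38 and 8.67 ± 1.09 TPM and 72.8 ± 11.2 and 63.3 ± 4.83 TPM.

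Of 7 other known targets of ChREBP that were tested, 6 had a positive log2 difference and 1 a negative, with a median of 0.022 against 0.015 over all genes tested. Gpd1, which makes glycerol 3-phosphate, was 669.4 ± 78.4 TPM in WT and 759.6 ± 110.0 in AKO, and Txnip was 765.8 ± 177.6 and 806.0 ± 114.0. The hormone gene Fgf21 was 2.35 ± 1.48 and 3.10 ± 0.422 TPM, and Slc2a4, the insulin-responsive glucose transporter, was 75.9 ± 30.6 and 54.7 ± 16.9. Among 8 tested SREBP targets, 4 were negative and 4 positive (median 0.002). Gpam, the first acyltransferase of triglyceride synthesis, was 54.9 ± 13.6 and 40.8 ± 5.66 TPM, while Idi1 was 24.4 ± 8.02 and 19.4 ± 5.11 and Insig1 141.3 ± 37.7 and 157.7 ± 27.6.

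Of 9296 genes compared, those whose log2(TPM + 1) followed Mlxipl closely over the 8 mice included Dock1 (r = 0.942), Rnf170 (0.939), Ccn2 (0.919) and Yars2 (0.917). Those nearest to Srebf1 were Aldh7a1 (0.976), Pdf (0.966), Prkag2 (0.965), Alad (0.963) and Ndufv2 (0.962). Nearest to the mean of the 8 enzyme and cofactor genes were L3hypdh (0.981), Smim10l1 (0.974), Fbxl4 (0.97), Tdrd7 (0.966) and Hist1h2be (0.963). These are among the highest of 9296 values, each over 8 points, and are given as a description only.

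The libraries were alike in coarse measures, with 13968 to 14884 genes at 1 TPM or more and 6.69% to 8.99% of TPM from mitochondrial genes. Rows above 0 numbered 62802 to 66112 in WT and 66238 to 70374 in AKO, so that every AKO library had more, and the part of this in the results was not tested. Slc16a1, the floxed gene, was 21.3 ± 5.78 TPM in WT and 24.0 ± 2.54 in AKO (SD, n = 4, limma FDR 0.85), so that its total does not mark the genotype in this tissue and does not check the labels.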

How the data were processed

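The authors deposited 1 table per mouse with 152298 rows, each a gene identifier and a TPM value in steps of 0.01, with no read counts, so the read depth of a library is unknown. HISAT2, DESeq2 and mm9 appear in the submitters' processing notes with neither role nor version. The quantifier, annotation and use of strand were not given in the sources used here. Genes on the other strand overlap Mlxipl, Srebf1, Acaca, Acacb and Elovl6, and reads of such pairs may be mixed.

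Rows were summed per gene, and 401 rows without a gene (0.605% to 0.943% of TPM) were left out. Symbols came from a GENCODE M21 name table, which matched 55141 identifiers. Genes that reached 1 TPM in 4 or more mice were fitted on log2(TPM + 1) with limma 3.58.1 (R 4.3.3, mean-variance trend), with Benjamini-Hochberg adjustment and an FDR threshold of 0.05. This scale understates changes of low genes. Exact permutation tests were two-sided, over 70 arrangements of mice or 40320 pairings, and over fewer where mice were left out or genotype means were removed. The fit was tested on simulated data. Promoters are from RefSeq on GRCm38.p6 and serve as descriptions. No 2 libraries were identical.

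The members, lists and tests were chosen with earlier results of these data known. The pairs of enzymes, single rows and marker scores were added after the values were seen. The text names all members, up to 4 genes per related list with the smallest limma p, and the 5 genes most like each regulator and like the enzyme mean, except that some are not reported here.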

Additional observations from a re-analysis of the deposited data

Results flagged for a closer look

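The ratio of Scd1 to Scd2 in AKO mouse 8 was 72.1, where the other AKO mice had 24.1, 23.8 and 30.6. Its gap to the nearest mouse was 0.859 of the range of the 4 AKO mice, above Dixon's 95% critical value. The WT mice spanned 16.3 to 75.7, so the value is inside the range of the other genotype. Of 26 groups of 4 values examined, this was the 1 with such a gap, and chance gives about 1 in 20.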

How the results depend on the processing

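No member passed the FDR of 0.05 in limma under any alternative run, leaving out each mouse included. The Mlxipl FDR was 0.514 with sample quality weights, 0.765 with the adipocyte score as a covariate and, over single mice left out, between 0.332 (without WT mouse 3) and 1.0. A pseudocount of 0.1 gave 5 genes higher in AKO in place of 3, and leaving out 1 mouse gave 1 to 3 higher and 0 to 2 lower. With the adipocyte score as a covariate the log2 differences of Acacb, Fasn, Elovl6 and Thrsp turned to 0.179, 0.035, −0.053 and 0.265, and those of Scd1 and Acaca were −0.09 and −0.199, all uncalled. With 1 mouse left out they ran from −0.182 to 0.269 for Acacb, −0.342 to 0.144 for Fasn and −0.086 to 0.191 for Elovl6. For the others they ran from −0.781 to −0.01 for Thrsp, −0.683 to −0.049 for Scd2, −0.997 to −0.343 for Scd1, −0.27 to −0.028 for Acly, −0.533 to −0.277 for Acaca and −0.201 to −0.086 for Srebf1, and the Scd1 to Scd2 log2 ratio difference from −0.705 to 0.03 and that of Acaca to Acacb from −0.75 to −0.129.

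The 2 relations with Srebf1 became 0 by rank, with genotype means removed, with the adipocyte score regressed out, and without the 2 farthest mice. They also became 0 once WT mouse 4, or either of AKO mice 3 and 8, was dropped, and 4 with the highest row of each gene. Over single mice left out they ran from 0 to 2, with r of 0.897 to 0.972 for Acaca and 0.785 to 0.931 for Scd1. The highest row gave 3 relations with Mlxipl in place of 0: Scd1 0.864, Thrsp 0.844 and Srebf1 0.891.

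Weak relations changed sign. By rank, Mlxipl gave 0.119 with Acacb, 0.024 with Fasn and −0.024 with Elovl6, and with median-ratio scaling 0.031 with Acacb and 0.012 with Fasn. By highest row, Mlxipl gave −0.282 with Acly, 0.242 with Acacb, 0.306 with Fasn and −0.269 with Elovl6, and Srebf1 −0.215 with Acly. With genotype means removed, Mlxipl gave −0.298 with Acaca, −0.372 with Scd1, −0.001 with Scd2, −0.29 with Thrsp and −0.609 with Srebf1. With the adipocyte score regressed out, Mlxipl gave −0.326 with Thrsp, and Srebf1 −0.368 with Acacb, 0.575 with Elovl6 and −0.254 with Thrsp. Without the 2 farthest mice, Mlxipl gave 0.427 with Acacb, 0.135 with Fasn and −0.394 with Elovl6, and Srebf1 −0.29 with Acacb. With 1 mouse left out, r with Mlxipl ran from −0.076 to 0.646 for Acly, −0.613 to 0.172 for Acacb, −0.38 to 0.4 for Fasn, −0.074 to 0.673 for Scd2, −0.365 to 0.459 for Elovl6, −0.131 to 0.323 for Thrsp and −0.054 to 0.296 for Srebf1. For Srebf1 it ran from −0.145 to 0.429 with Acacb and −0.267 to 0.034 with Elovl6. The cause of these changes was not tested.

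No paired analysis was possible because the groups share only the number 3, on different animals. With 4 mice a group and no depth, differences of the size of the intervals given could not be told from none.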

Other observations

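Several near relatives of the 10 genes were hardly present in this fat pad. Scd3 and Scd4, the other stearoyl-CoA desaturase genes of the mouse, read 0.02 to 0.72 TPM and 0.02 to 0.14 TPM over the 8 mice, and the highest Scd3 value was that of WT mouse 2. The elongase genes Elovl4 and Elovl7 read 0.05 to 0.45 and 0.12 to 0.42 TPM. Elovl3, an elongase known from brown fat and skin, reached 1 TPM in 3 mice, with 2.54 TPM in AKO mouse 9 and 1.40 TPM in WT mouse 3. Those mice also had the highest values of Pklr, the liver-type pyruvate kinase and a known ChREBP target, at 2.37 and 1.79 TPM, where the other 6 mice read 0 to 0.08 TPM. These genes were below the filter on low values and were not tested.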
